A study of Sus scrofa with 11 samples.

Results

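Heat shock proteins and their DNAJ cochaperones are the cell's protein folding machinery, and their transcripts were followed here in pig heart slices kept in culture. The members were all genes of the table whose symbol names a heat shock protein of the HSPA, HSPB, HSPD, HSPE, HSPH or HSP90 series, HSPB8 not included, or a DNAJA, DNAJB or DNAJC protein. They came to 46 of 16319 genes, of which 9686 carried a symbol. By the known location of the protein, 22 were placed in the cytosol, 14 in the endoplasmic reticulum (ER), 8 in mitochondria and 1, HSPB6, among the small heat shock proteins of muscle, and DNAJC22 was left unassigned. HSPA1A, HSPA1B, HSPA2, HSPA6, HSPB1, HSPB2, HSPB3, HSPB7 and DNAJC15 were not matched by symbol and were not analysed here.

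All 11 libraries came from hearts of wild-type Yorkshire pigs aged 3 months, with 3 libraries from slices on day 0 and 2, 3 and 3 libraries from slices after 2, 6 and 10 days in culture under stimulation. What the stimulation was and whether the day 0 slices were taken fresh is not in the labels. Nor do they say whether replicates came from separate animals, so p-values measure the spread between these libraries, which may be technical. A slice holds many cell types, and fewer cells of a type and less RNA per cell cannot be told apart. Levels are FPKM as computed by the authors, in which fragments are divided by the length of the gene and the size of the library.

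HSP70 proteins bind and release unfolded stretches of client proteins in a cycle driven by ATP. DNAJ proteins carry a J domain that starts ATP hydrolysis by HSP70 and brings clients to it, and HSP110 proteins restart the cycle by exchanging the nucleotide. HSP90 takes over later steps of folding, HSPD1 and HSPE1 form the folding cage of mitochondria, and small heat shock proteins hold damaged proteins in a soluble state. In the heart these proteins are best known for their induction by heat, ischaemia and mechanical load, and loss of function of several of them is linked to muscle disease.

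The libraries held 11710069 to 16784691 reads. Day 0 replicate 2 and day 2 replicate 1 stood apart, with 4536 and 4017 genes at 0 against at most 2331 in the 9 others. Day 0 replicate 2 had the lowest level of all libraries for 35 of the 46 members, with 7 members at 0 against 0 to 3 in the others, so the counts against day 0, and the values of the members called there, are given with and without it. The labelled tissue was checked with marker genes. The summed FPKM of cardiomyocyte markers, 7 of 10 listed being measured, was 56885 to 101381 on day 0, 1522 to 11212 on day 2, 8999 to 20385 on day 6 and 16.1 to 101 on day 10. On day 10, the fibroblast markers (7 of 8 measured) summed to 1946 to 8769 FPKM, against 367 to 1984 on day 0, and the smooth muscle and pericyte markers (6 of 7) to 2282 to 3110, against 183 to 416. Most of the latter sum on day 10 was TAGLN, at 1946, 2395 and 1971 FPKM. Of these 6 markers, 4 had a positive log2 fold change on day 10, and 1 was called higher. The means of MYH11 and NOTCH3 fell from 4.834 and 10.34 FPKM to 0.6162 and 2.175. Of the 7 fibroblast markers, 2 were called higher. The endothelial markers (5 of 8) summed to 150 to 577 FPKM on day 0, 862 to 2264 on day 2, 882 to 2137 on day 6 and 306 to 1019 on day 10. Those of macrophages, lymphocytes and erythroid cells summed to between 0.0933 and 683, and CD3D on day 10 was at 0. The part of this shift in cell markers in the chaperone results was not tested.

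The summed FPKM of the members was higher after 2 and 6 days in culture. Summed over the 46 members, FPKM was 1977, 765 and 2407 on day 0. It was 5682 and 3617 on day 2, 8674, 6128 and 5583 on day 6, and 3321, 2230 and 3420 on day 10. All libraries of day 2 and day 6 were above all of day 0, while day 10 replicate 2 lay within the day 0 range. The mean was 1716 ± 851 (SD, n = 3) on day 0, 6795 ± 1650 (SD, n = 3) on day 6 and 2990 ± 660 (SD, n = 3) on day 10. Members did not share evenly in this. HSPA5 and HSPA1L had means of 83.17 and 81.91 FPKM on day 0 and 1865 and 1322 on day 6. The mitochondrial members summed to means of 747, 1003 and 875 on days 0, 2 and 6. The median log2 fold change of all tested genes was 0.51 on day 2 and 0.88 on day 6.

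**Figure D1:**
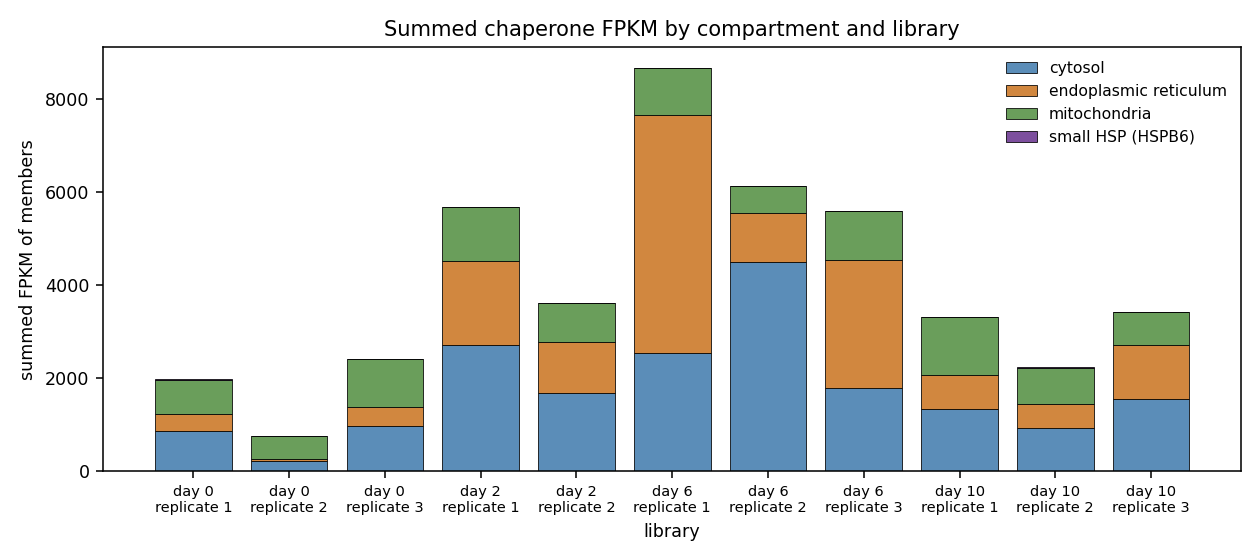
Summed FPKM of the members, without the unassigned DNAJC22, in each of the 11 libraries, stacked by compartment (vertical axis, summed FPKM, and horizontal axis, library). The ER share in orange is widest in day 6 replicates 1 and 3 (59% and 49.1% of the members' FPKM), while the cytosol in blue takes 73.3% in day 6 replicate 2.

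The make-up of the members' sum moved too. ER members held 17.8%, 6.53% and 17% of the members' FPKM on day 0, 32% and 30.3% on day 2, 59%, 17.3% and 49.1% on day 6, and 22%, 24% and 33.9% on day 10. Mitochondrial members held 37.8%, 62.9% and 42.1% on day 0, but only 20.4% and 23.4% on day 2 and 11.7%, 9.24% and 18.7% on day 6. Apart from day 6 replicate 2, every cultured library gave the ER a larger share than any day 0 library. On day 10 the mitochondrial share was 37.8%, 34.8% and 20.8%, at or below the lowest day 0 value.

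Each tested gene was compared with limma on log2(FPKM + 1), and a gene was called where its limma adjusted p, taken over all 12625 tested genes, was under 0.05. Fold changes on this scale understate the ratios of genes with low FPKM. DNAJC6, a clathrin uncoating factor, and DNAJC22 averaged under 1 FPKM and were not tested, which left 44 members. Against day 0, 6 members rose and 1 fell on day 2, beside 5.76% of all tested genes called higher and 3.14% called lower. On day 6, 13 rose and 0 fell, beside backgrounds of 9.55% and 1.76%. On day 10, 9 rose and 2 fell, beside 11.9% and 6.23%. The members called higher made up 13.6%, 29.5% and 20.5% of those tested at the 3 times. The median log2 fold change of the tested members was 1.45, 1.61 and 1.13, where that of all tested genes was 0.51, 0.88 and 0.51. All libraries of the cultured day lay above all of day 0 for 24, 21 and 17 members, beside 26.7%, 38.8% and 25.1% of tested genes, and below for 4, 3 and 4, beside 9.18%, 6.76% and 9.28%.

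Part of this distance came with day 0 replicate 2 and with the scaling of the libraries. When that library was left out, the members' medians were 0.70, 0.92 and 0.41 beside 0.10, 0.46 and 0.10 for all genes. The calls were then 5 higher and 4 lower on day 2, 5 and 1 on day 6, and 2 and 6 on day 10. On day 2 these were 11.4% and 9.09% of members beside 6.67% and 7.3% of all genes, and on day 6 they were 11.4% and 2.27% beside 6.67% and 3.22%. On day 10 the 2 higher calls were 4.55% of members beside 11.3% of all genes, and the 6 lower calls 13.6% beside 10.1%. With libraries scaled by the median ratio of genes, the medians were 0.77, 0.61 and 0.58 beside 0.00, 0.12 and 0.07, and calls were 3 higher and 2 lower on day 2, 3 and 2 on day 6, and 5 and 3 on day 10. The corresponding shares of all genes under this scaling were 2.67% and 6.46%, 2.13% and 4.71%, and 7.22% and 9.85%. Of the 7 members called on day 2 without this scaling, 4 kept the call: DNAJB5, DNAJC3, HSPA5 and HSPH1. On day 6, 3 of 13 kept it: DNAJC3, HSPA5 and HSPH1. On day 10, 7 of 11 kept it: DNAJB14, DNAJB5, DNAJC25, HSPA13, HSPA14, HSPB6 and HSPH1.

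**Figure D2:**
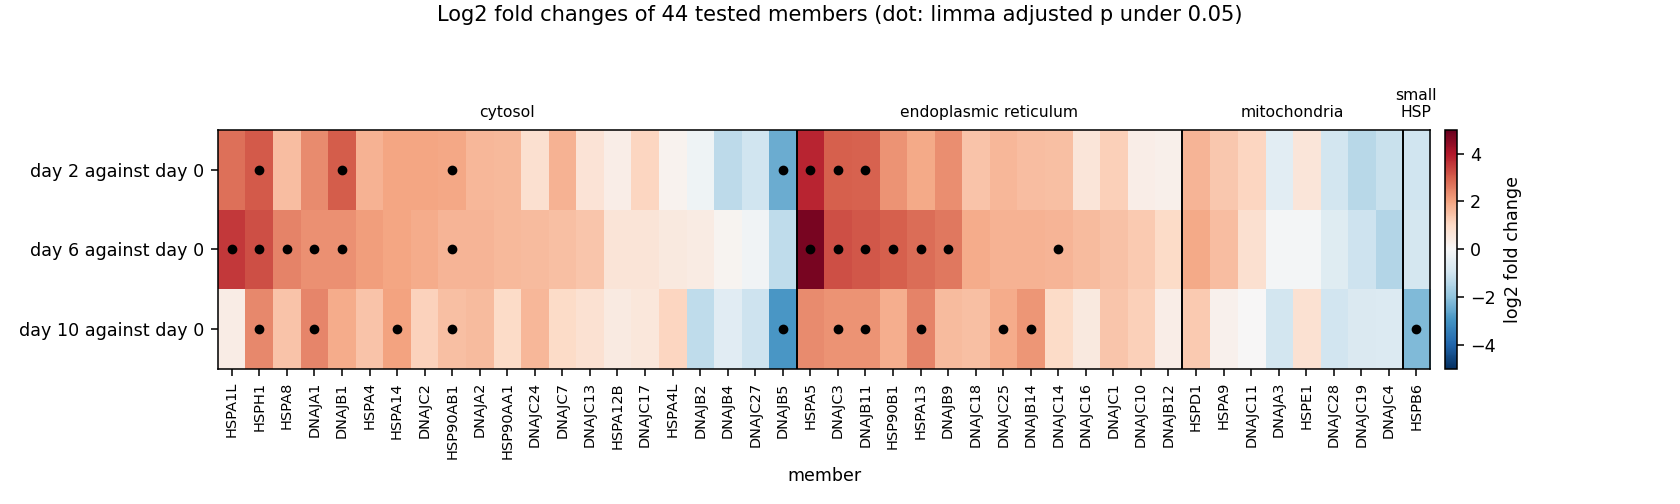
Log2 fold changes of the 44 tested members against day 0, on log2(FPKM + 1), with 1 column per member grouped by compartment and ordered by the day 6 value. Red is higher and blue lower than day 0, and a dot marks a limma adjusted p under 0.05. All 14 ER members are red at all 3 times in this fit of all libraries (without day 0 replicate 2, DNAJC10 and DNAJB12 are below 0 on day 2, and under median ratio scaling DNAJC10 on day 2 and DNAJB12 at all 3 times), while the mitochondrial members are red or blue and carry no dot.

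With all libraries, all 14 ER members had a positive log2 fold change on day 2, day 6 and day 10, where 68.1%, 78.3% and 68.7% of all tested genes did, and 3, 7 and 5 of them passed the test as higher. Of all tested genes, 5.76%, 9.55% and 11.9% were called higher. The median log2 fold change of the ER members was 1.60, 1.80 and 1.70. With day 0 replicate 2 left out the number of higher calls was 3, 4 and 0, with medians of 0.81 to 1.20, beside 6.67%, 6.67% and 11.3% of all genes. Under median ratio scaling it was 2, 2 and 3, beside 2.67%, 2.13% and 7.22%. The signs of DNAJC10 and DNAJB12 were not stable: without day 0 replicate 2 they were at -0.58 and -0.06 on day 2, and under median ratio scaling DNAJC10 was at -0.37 on day 2 and DNAJB12 at -0.50, -0.12 and -0.36 on days 2, 6 and 10.

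HSPA5 (BiP), the HSP70 of the ER lumen and the sensor partner of the unfolded protein response, had the highest mean FPKM of all members on day 2 (839.2) and day 6 (1865). On day 10 its mean of 315.5 was below those of HSPE1 (581.7) and HSP90AA1 (347.2), and on day 0, at 83.17, it was below HSPE1 (340) and others. Its level was 114, 11.2 and 124 FPKM on day 0 and 1123 and 555 on day 2. It was 3528, 708 and 1359 on day 6, and 233, 193 and 521 on day 10. Every cultured library was above every day 0 library, and day 6 replicate 1 was the highest of all, with HSPA5 alone holding 40.7% of the members' FPKM there. The log2 fold change was 3.82 ± 0.95 (SE, limma adjusted p = 0.0272) on day 2 and 4.75 ± 0.85 (0.00865) on day 6. On day 10 it was 2.36 ± 0.85, with a limma adjusted p of 0.0731 that missed the threshold. In the fit without day 0 replicate 2, HSPA5 was at 2.72 on day 2 (0.0215), 3.65 on day 6 (0.00602) and 1.26 on day 10 (0.193). The day 2 call was lost without day 2 replicate 1 (3.31, 0.141) or replicate 2 (4.33, 0.0798), and the day 6 call without day 6 replicate 1 (4.13, 0.0623).

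Of the J proteins of the lumen, DNAJC3 and DNAJB11 passed the test as higher on all 3 days, and DNAJC10 (ERdj5), which reduces disulfide bonds, on none. DNAJC10 was at 18.9, 2.53 and 25 FPKM on day 0, 8.52 and 23.3 on day 2, 41.3, 11 and 53.2 on day 6, and 32.8, 19.3 and 29.6 on day 10, so every cultured day overlapped day 0. DNAJC3 (p58IPK), a lumenal cochaperone, was at 10.1, 0.652 and 7.85 FPKM on day 0, 55.4 and 31.5 on day 2, 74, 32 and 51.8 on day 6, and 32.9, 13.6 and 33.4 on day 10. DNAJB11 (ERdj3), which binds unfolded clients directly, was at 14.4, 2.25 and 14.4 on day 0, 90.9 and 51.8 on day 2, 124, 31.3 and 123 on day 6, and 54.8, 27.6 and 49.3 on day 10. Neither gene overlapped day 0 at any time, and day 6 replicate 2 was the lowest day 6 library for both. Log2 fold changes of DNAJC3 were 2.97 ± 0.77 (SE, limma adjusted p = 0.032), 3.22 ± 0.69 (0.0166) and 2.23 ± 0.69 (0.0401) on days 2, 6 and 10. Those of DNAJB11 were 2.93 ± 0.77 (0.0339), 3.12 ± 0.69 (0.0185) and 2.23 ± 0.69 (0.0401). Both kept their day 2 and day 6 calls without day 0 replicate 2, and both lost the day 10 call, at 1.37 for DNAJC3 (0.0735) and 1.49 for DNAJB11 (0.0874). The day 10 call was lost for both without day 6 replicate 1 or 3 or day 10 replicate 1 or 3 (0.0522 to 0.13), for DNAJC3 also without day 6 replicate 2 (0.0518), and for DNAJB11 also without day 10 replicate 2 (0.0629). Leaving out either day 2 library ended both day 2 calls (limma adjusted p 0.0918 to 0.161), and leaving out day 6 replicate 1 or 3 ended both day 6 calls (0.0601 to 0.107). The day 2 call was also lost without day 6 replicate 3 for DNAJC3 (0.0508) and without day 10 replicate 2 for DNAJB11 (0.0518).

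DNAJB9 (ERdj4), a lumenal J protein tied to the disposal of misfolded proteins, was at 18.4, 2.92 and 21.7 FPKM on day 0, 62.7 and 55.9 on day 2, 129, 35.2 and 89.6 on day 6, and 51, 28.6 and 28.6 on day 10. It too lay above day 0 in all cultured libraries, and passed the test on day 6 (2.65 ± 0.67, limma adjusted p = 0.0288) but not on day 2 (2.33, 0.071). The day 6 call was lost without day 6 replicate 1 (2.26, 0.146) or replicate 3 (2.52, 0.102), and held without day 0 replicate 2 (1.85, 0.0399).

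HSP90B1 (GRP94), the HSP90 of the ER, needed more caution. It was at 109, 13.8 and 154 FPKM on day 0, 388 and 226 on day 2, 1042, 134 and 881 on day 6, and 199, 154 and 360 on day 10. Day 6 replicate 2 lay below day 0 replicate 3, so the groups overlapped on day 6. The log2 fold change of 2.98 ± 0.90 on day 6 passed narrowly (limma adjusted p = 0.0495), and of the 11 fits that each left out a library it held only in those without day 0 replicate 1, day 0 replicate 3 or day 6 replicate 2. It was 1.93 with an adjusted p of 0.112 without day 0 replicate 2. On day 2 and day 10, HSP90B1 was at 2.24 (0.178) and 1.82 (0.178). The ratio of HSPA5 to HSP90B1 within a library, which no scaling of libraries alters, was 1.05, 0.817 and 0.804 on day 0 and higher in every cultured library, at 2.89 and 2.45 on day 2, 3.38, 5.29 and 1.54 on day 6, and 1.17, 1.25 and 1.45 on day 10.

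HSPA13 (STCH), a microsome-associated HSP70 that lacks the client-binding domain, was at 4.93, 0.311 and 7.13 FPKM on day 0 and 6.55 and 27.8 on day 2. It reached 35.9, 14 and 38.6 on day 6 and 28.9, 17 and 20 on day 10. Day 2 overlapped day 0, while day 6 and day 10 did not, with log2 fold changes of 2.81 ± 0.73 (limma adjusted p = 0.0315) and 2.49 ± 0.73 (0.0318). Without day 0 replicate 2 they were 2.01 (0.0505) and 1.69 (0.0609). The day 6 call was also lost without day 6 replicate 1 or 3 or day 10 replicate 2 (0.0541 to 0.14), and the day 10 call without any library of day 10 (0.0706 to 0.103). The remaining called ER members are J proteins of the ER membrane. DNAJC14 rose on day 6 (1.69 ± 0.50, 0.0465), and DNAJB14 (2.20 ± 0.71, 0.0473) and DNAJC25 (1.86 ± 0.56, 0.0358) rose on day 10. None of these 3 passed without day 0 replicate 2, at 1.19 (0.0852), 1.39 (0.0972) and 1.27 (0.0623). With 1 library left out, DNAJC14 passed only without day 0 replicate 1, and DNAJB14 only without day 0 replicate 3 or a library of day 2. DNAJC25 was lost as well without day 6 replicate 1 or 3 or any library of day 10 (0.057 to 0.095).

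**Figure D3:**
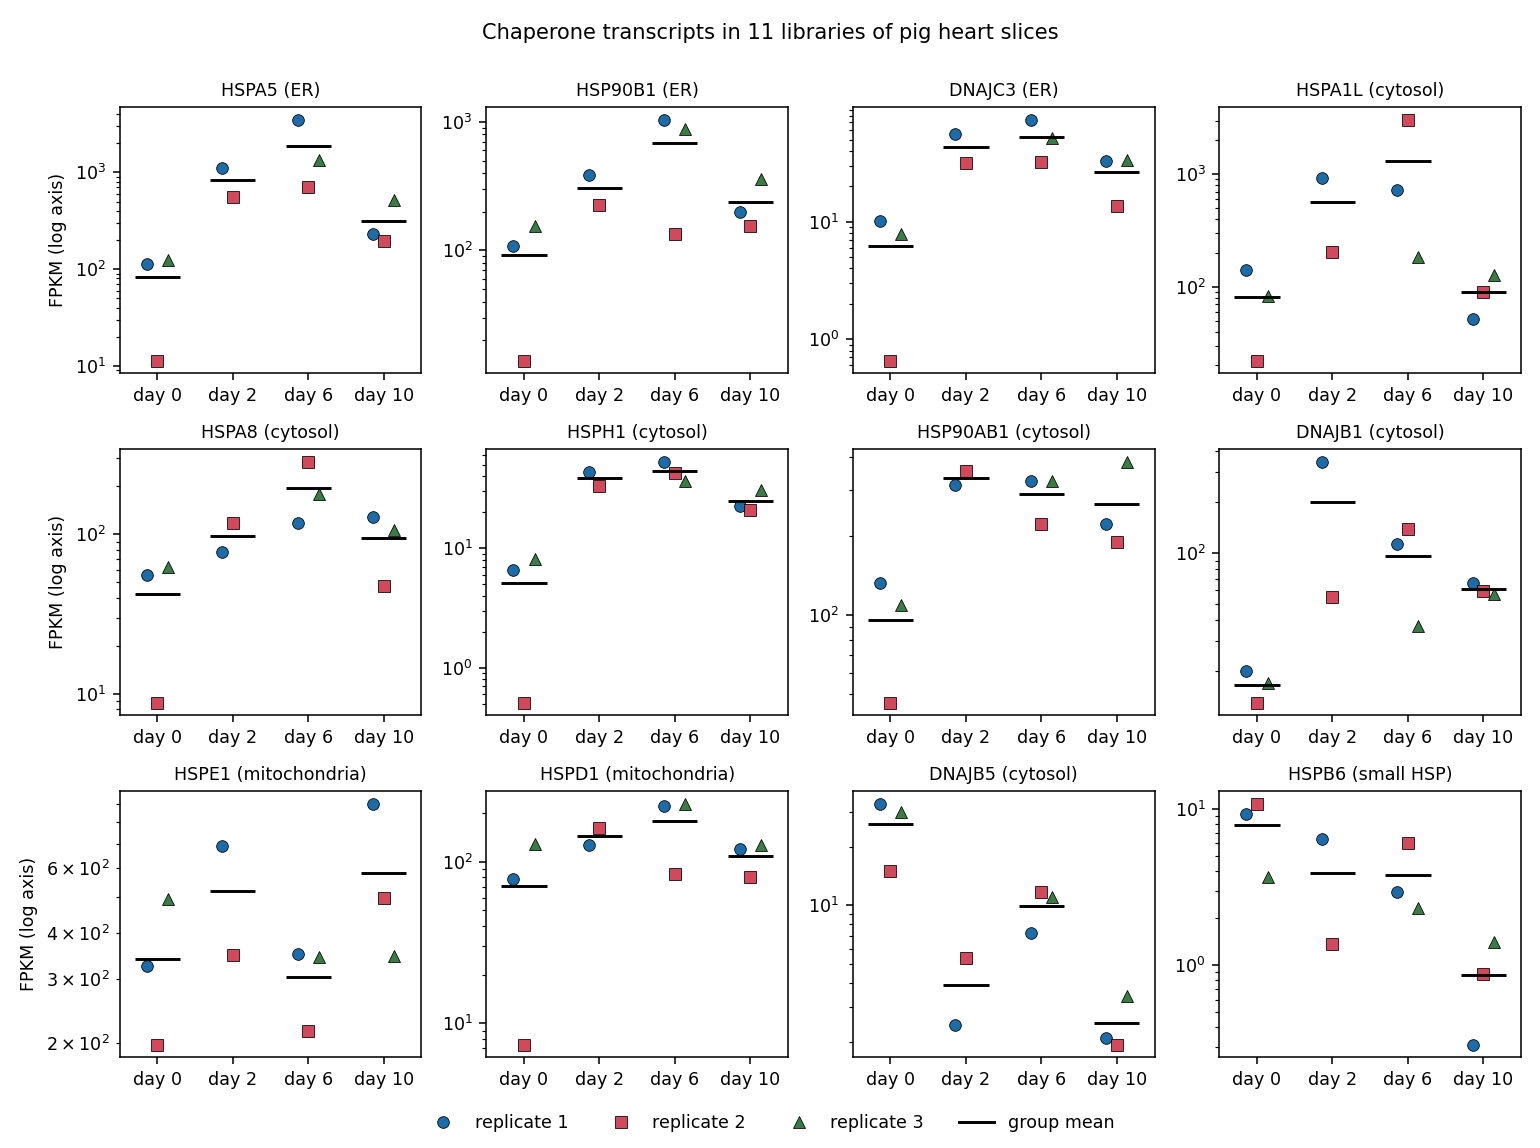
FPKM (log axis) of 12 members in the 11 libraries by day, with a symbol per replicate number and a black line at the group mean. Day 0 replicate 2 is the lowest point for HSPA5, HSP90B1, DNAJC3, HSPA1L, HSPA8, HSPH1, HSP90AB1, DNAJB1, HSPE1 and HSPD1, but not for DNAJB5 and HSPB6, and day 6 replicate 2 (3062 FPKM) is the highest point for HSPA1L.

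Among the 21 tested cytosolic members, 3 rose and 1 fell on day 2, 6 rose and 0 fell on day 6, and 4 rose and 1 fell on day 10. Of all tested genes, 5.76%, 9.55% and 11.9% were called higher and 3.14%, 1.76% and 6.23% lower. The cytosolic median log2 fold change was 1.64, 1.63 and 1.09. When day 0 replicate 2 was left out, the calls were 2 higher and 3 lower, 1 and 1, and 2 and 4, with medians of 0.85, 0.89 and 0.40. The shares of all genes in that fit were 6.67%, 6.67% and 11.3% higher and 7.3%, 3.22% and 10.1% lower.

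HSPH1 (HSP110), the nucleotide exchange factor of cytosolic HSP70, passed the test as higher at all 3 times, as did HSP90AB1. It was at 6.61, 0.507 and 8.17 FPKM on day 0, 43.6 and 33 on day 2, 53, 42.9 and 36.7 on day 6, and 22.3, 20.7 and 30.8 on day 10. The cultured libraries were well apart from day 0 and close to each other within a day. Log2 fold changes were 3.05 ± 0.68 (limma adjusted p = 0.0176), 3.24 ± 0.61 (0.0099) and 2.42 ± 0.61 (0.0162). Leaving out day 0 replicate 2 gave 2.22 (0.00469), 2.42 (0.00414) and 1.59 (0.0113), and under median ratio scaling 2.57 (0.0169), 2.42 (0.0182) and 2.00 (0.0193). The calls were lost without day 2 replicate 1 (2.85, 0.105) or replicate 2 (3.24, 0.0727) on day 2, without day 6 replicate 1 (3.11, 0.0707) on day 6, and without day 10 replicate 3 (2.25, 0.0619) on day 10. Its relative HSPA4 was at 19.6, 1.43 and 32.3 FPKM on day 0, 34 and 44.7 on day 2, 59.6, 30.2 and 67.4 on day 6, and 29.1, 23.9 and 43.1 on day 10, and passed in none of these comparisons.

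The row named HSPA1L, a member of the cytosolic HSP70 family that lies in the same gene cluster as the stress-inducible HSPA1A and HSPA1B, varied widely between replicates in FPKM. It was at 140, 21.9 and 83.5 FPKM on day 0, 917 and 205 on day 2, 720, 3062 and 185 on day 6, and 52.1, 89.5 and 127 on day 10. HSPA1A and HSPA1B are close relatives of it in sequence, so reads of these genes may have been counted here. Day 2 and day 6 were above day 0 in every library, and day 10 lay within the day 0 range. The log2 fold change was 2.74 ± 1.06 on day 2 (limma adjusted p = 0.123) and 3.52 ± 0.95 on day 6 (0.0354). The day 6 call was lost without day 0 replicate 2 (2.77, 0.0759), day 0 replicate 3 (3.71, 0.0548), day 6 replicate 1 (3.54, 0.126), day 6 replicate 2 (2.50, 0.105) or day 10 replicate 2 (3.52, 0.0599).

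HSPA8 (HSC70), the constitutive HSP70, was at 55.6, 8.75 and 62.7 FPKM on day 0, 77.9 and 117 on day 2, 118, 286 and 179 on day 6, and 129, 47.4 and 107 on day 10. Only day 10 overlapped day 0, and the test passed on day 6 (2.48 ± 0.69, limma adjusted p = 0.0381) but not on day 2 (1.56, 0.217). The day 6 value was 1.61 (0.0601) without day 0 replicate 2, and the call was also lost without any library of day 6 or without day 10 replicate 2 or 3 (0.0514 to 0.109). Day 6 replicate 2 was the highest library for HSPA8 as well as for HSPA1L. HSPA14, a ribosome-associated HSP70, was at 6.49, 0.54 and 6.54 FPKM on day 0 and 23.5, 15.3 and 13.8 on day 10, a log2 fold change of 2.03 ± 0.62 (0.0384) that was 1.27 (0.0617) without day 0 replicate 2 and was lost as well without any library of day 6 or day 10 (0.052 to 0.122).

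Of the cytosolic HSP90 pair, HSP90AB1 passed the test on all 3 days and HSP90AA1 on none. HSP90AB1, the constitutive form, was at 132, 46.1 and 109 FPKM on day 0, 313 and 354 on day 2, 323, 221 and 324 on day 6, and 221, 189 and 384 on day 10. It did not overlap day 0 at any time, with log2 fold changes of 1.92 ± 0.53 (limma adjusted p = 0.0418), 1.70 ± 0.48 (0.0409) and 1.52 ± 0.48 (0.0431), and of 24 alternative settings 8, 14 and 8 kept the call. Without day 0 replicate 2 the values were 1.47 (0.051), 1.24 (0.0794) and 1.07 (0.0904), and under median ratio scaling 1.13 (0.218), 0.55 (0.488) and 0.79 (0.293). With 1 library left out, the day 2 call held only without day 0 replicate 1 or day 10 replicate 3, and the day 10 call only without day 0 replicate 1. The day 6 call held without day 0 replicate 1, either library of day 2 or day 10 replicate 3. HSP90AA1, the inducible form, was at 242, 59.3 and 341 FPKM on day 0, 615 and 464 on day 2, 689, 419 and 515 on day 6, and 336, 224 and 481 on day 10. It lay above day 0 in every library of day 2 and day 6 but passed in no comparison.

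Of the cytosolic J proteins that hand clients to HSP70, DNAJB1 (HSP40), the stress-inducible one, was at 20, 12.9 and 16.9 FPKM on day 0, 347 and 54.9 on day 2, 112, 138 and 36.8 on day 6, and 66.5, 59.2 and 57.2 on day 10. It differed from most members in that day 0 replicate 2 was close to the other day 0 libraries. All cultured libraries were above day 0, and of the cultured days the values were closest together on day 10. Log2 fold changes were 3.01 ± 0.72 (limma adjusted p = 0.0234) on day 2, 2.28 ± 0.65 (0.0426) on day 6 and 1.84 (0.0669) on day 10, and the day 2 call was lost without day 2 replicate 1 (1.69, 0.182). Without day 0 replicate 2 the values were 2.85 (0.0232), 2.11 (0.0688) and 1.67 (0.103). With 1 library left out, the day 6 call held only without either library of day 2 or day 6 replicate 3, and was otherwise lost (0.0535 to 0.168). DNAJA1 was at 44.4, 6.62 and 63.2 FPKM on day 0, 148 and 143 on day 2, 152, 120 and 140 on day 6, and 261, 109 and 120 on day 10. It rose on day 6 (2.29 ± 0.67, 0.0465) and day 10 (2.43 ± 0.67, 0.0254), and 8 and 19 of 24 alternatives kept these calls. Values of DNAJA1 without day 0 replicate 2 were 1.35 (0.0685) on day 6 and 1.49 (0.027) on day 10. With 1 library left out, the day 6 call held only without day 0 replicate 1 or 3, and the day 10 call was lost without any library of day 10 (0.0502 to 0.101).

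Against day 0, DNAJB5 was called lower on days 2 and 10 and HSPB6 on day 10. These calls were 2.27% of tested members on day 2 and 4.55% on day 10. Of all tested genes, 3.14% and 6.23% were called lower. DNAJB5, a cytosolic J protein expressed in heart, was at 33.3, 15 and 30.3 FPKM on day 0, 2.42 and 5.39 on day 2, 7.19, 11.7 and 11 on day 6, and 2.08, 1.92 and 3.43 on day 10. The recovered reads behind these values were 1650, 674 and 1772, then 140 and 247, then 430, 520 and 636, then 108, 80 and 199. No cultured library reached the lowest day 0 library, which was replicate 2. The log2 fold change was -2.47 ± 0.56 on day 2 (limma adjusted p = 0.0188) and -2.92 ± 0.50 on day 10 (0.00163), with -1.26 ± 0.50 on day 6 (0.103). Leaving out day 0 replicate 2 gave -2.81 (0.00332) on day 2, -3.26 (2.87e-04) on day 10 and, now past the threshold, -1.60 (0.0481) on day 6. The day 10 call held in all 24 alternatives, the largest of their adjusted p-values being 0.0123, and the day 2 call was lost without day 0 replicate 1 (0.0547), day 0 replicate 3 (0.0566) or day 2 replicate 1 (0.121). Within libraries, the ratio of DNAJB5 to the mitochondrial DNAJA3 was 0.435, 0.195 and 0.542 on day 0, 0.0516 and 0.112 on day 2, 0.12, 0.206 and 0.135 on day 6, and 0.0556, 0.0628 and 0.0828 on day 10. Day 6 replicate 2 lay above day 0 replicate 2 in this ratio, and the other cultured libraries lay below all of day 0.

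HSPB6 (HSP20), a small heat shock protein of cardiac, skeletal and smooth muscle, was at 9.24, 10.8 and 3.66 FPKM on day 0, 6.39 and 1.37 on day 2, 2.92, 6.06 and 2.31 on day 6, and 0.309, 0.873 and 1.4 on day 10. The day 10 values rested on 19, 43 and 96 reads. Only day 10 lay below all of day 0, at -2.19 ± 0.59 on the log2 scale (limma adjusted p = 0.022). The call held in 20 of 23 alternatives, among them that without day 0 replicate 2 (-1.94, 0.0351), and was lost without day 0 replicate 1 (-2.04, 0.0641), day 10 replicate 1 (-1.96, 0.083) or day 10 replicate 2 (-2.22, 0.0652). Beside both genes, all 7 cardiomyocyte markers were called lower on day 10, with a median log2 fold change of -9.71, and 5 of 7 on day 2 and 3 of 7 on day 6. The part of that fall in HSPB6 and DNAJB5 was not tested.

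DNAJB4, a cytosolic J protein abundant in heart and skeletal muscle, showed how much day 0 replicate 2 can decide. It was at 39.8, 2.16 and 104 FPKM on day 0, 6.89 and 10.7 on day 2, 30.8, 15.8 and 32.1 on day 6, and 21.5, 11.9 and 13.5 on day 10. All cultured libraries lay between the low day 0 library and the other two. The day 2 log2 fold change was -1.31 ± 1.07 (limma adjusted p = 0.473) with all libraries and -2.76 (0.00593) without day 0 replicate 2. On day 10 it was -2.02 (0.0129) without that library. DNAJC27, a J protein with a Rab-like GTPase domain, was not called with all libraries. Without day 0 replicate 2, where it had 0 reads, it was called lower on day 2 (-1.74, limma adjusted p = 0.0316) and day 10 (-1.77, 0.0126). It had only 46 and 53 reads in day 0 replicates 1 and 3, 0 and 10 on day 2, and 0, 5 and 9 on day 10.

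**Figure D4:**
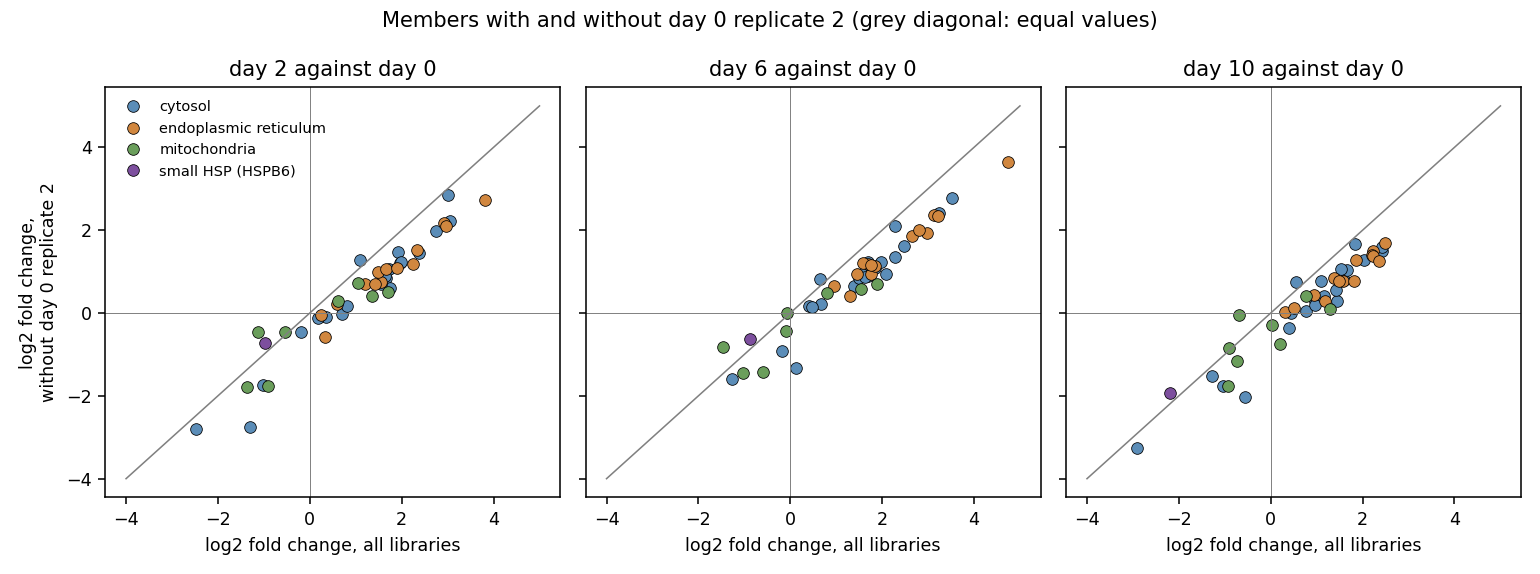
Log2 fold change of each tested member against day 0 with all libraries (horizontal axis) and without day 0 replicate 2 (vertical axis), on days 2, 6 and 10, coloured by compartment. Most points lie below the grey line of equal values, HSPA5 stays the highest ER point on day 6 (4.75 against 3.65), and DNAJB5 is the lowest on day 10 (-2.92 against -3.26).

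The mitochondrial members did not move as a group. Of 8 tested, 0 were called in each of the 5 comparisons, and their median log2 fold change against day 0 was 0.05, -0.09 and -0.33. Without day 0 replicate 2, 1, 0 and 1 were called lower on days 2, 6 and 10: DNAJC19, a subunit of the protein import motor, on day 2 (-1.78, limma adjusted p = 0.0309), and DNAJC28 on day 10 (-1.77, 0.0408). DNAJC28 had only 50, 0 and 128 reads on day 0 and 16, 0 and 25 on day 10. DNAJC19 was at 61.1, 32.9 and 104 FPKM on day 0, 22.1 and 22.8 on day 2, and 28.6, 29.2 and 27.2 on day 6. Day 10, at 56, 38.1 and 20.1, overlapped day 0. Under median ratio scaling DNAJC19 was called lower on day 2 (-2.15, 0.041) and day 6 (-2.17, 0.0299). HSPA9 (mortalin), the mitochondrial HSP70, was at 138, 19.9 and 162 FPKM on day 0, 196 and 200 on day 2, 290, 130 and 297 on day 6, and 84.7, 68.3 and 123 on day 10. HSPD1 (HSP60), which forms the walls of the folding cage, was at 77.7, 7.34 and 128, then 126 and 161, then 221, 83.4 and 229, then 119, 80.8 and 126. HSPE1 (HSP10), its lid, was at 326, 198 and 496, then 689 and 349, then 350, 216 and 345, then 901, 497 and 347. On day 6 HSPA9 and HSPD1 had log2 fold changes of 1.53 (0.133) and 1.89 (0.122), both overlapping day 0. DNAJA3 (TID1), the J protein of HSPA9, was at 76.6, 76.9 and 56 FPKM on day 0 and 37.4, 30.5 and 41.5 on day 10, below all of day 0 but short of the threshold (-0.91, 0.113).

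Ratios within a library set members against each other without regard to depth or scaling. HSPA5 to HSPA9, the ER against the mitochondrial HSP70, was 0.826, 0.566 and 0.766 on day 0 and higher in every cultured library, at 5.72 and 2.78 on day 2, 12.2, 5.47 and 4.58 on day 6, and 2.75, 2.83 and 4.23 on day 10. Day 0 replicate 2, low for both genes, was thus close to its group by this measure. HSPD1 to HSPA9 was 0.562, 0.369 and 0.791 on day 0, 0.643 to 0.808 on days 2 and 6, and 1.4, 1.18 and 1.02 on day 10, where it was above all other libraries. HSPE1 to HSPD1, whose genes neighbour each other in the pig annotation, was 4.2, 27 and 3.87 on day 0, 5.45 and 2.16 on day 2, 1.58, 2.59 and 1.5 on day 6, and 7.59, 6.16 and 2.76 on day 10. By this last ratio day 0 replicate 2, at 27, was far from its group, so ratios do not remove all that sets this library apart. The ratios were chosen after their values could be seen and were not tested.

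The day 6 libraries were not alike. Day 6 replicate 2 had the highest HSPA1L (3062 FPKM) and HSPA8 (286) of all libraries, and HSPA1L alone made up 50% of the members' FPKM there. The same library had the lowest day 6 values of HSPA5 (708), HSP90B1 (134), DNAJC3 (32), DNAJB11 (31.3) and DNAJB9 (35.2). Replicates 1 and 3 showed the reverse, with HSPA5 at 3528 and 1359 and HSPA1L at 720 and 185. On day 2, replicate 1 had the higher HSPA1L (917 against 205), DNAJB1 (347 against 54.9) and HSPA5 (1123 against 555), and replicate 2 the higher HSPA8 (117 against 77.9).

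Between cultured days few differences passed. For day 6 against day 2, limma called 0 of 44 members and 0 of all tested genes (0%), with 0 members and 511 of 12625 genes at an unadjusted p under 0.05, and limma voom on the recovered reads also called 0 members. For day 10 against day 6, 1 member was called lower, beside 2.99% of all tested genes called lower and 1.91% higher, and the members' median was -0.62 beside -0.43. It was DNAJB2, a J protein that passes clients to the proteasome, at 31.8, 24.8 and 26.2 FPKM on day 6 and 6.72, 7.75 and 9.18 on day 10, with 27.4, 14.1 and 21.9 on day 0. The log2 fold change from day 6 was -1.69 ± 0.42 (limma adjusted p = 0.0382), kept in 14 of 24 alternatives and lost without day 0 replicate 3 or any library of day 6 or day 10 (0.0545 to 0.155). Against day 0, DNAJB2 on day 10 lay below all day 0 libraries but was not called. In 6 of 24 alternatives it was called lower, among them without day 0 replicate 2 (-1.53, 0.0142) and under median ratio scaling (-1.98, 0.00531). HSPA1L (-3.13 ± 0.95, 0.0824) and HSPA5 (-2.39 ± 0.85, 0.136) were lower on day 10 without overlap but missed the threshold. Both passed in the fit that left out day 0 replicate 2, at adjusted p-values of 0.0277 and 0.0173, where the standard error of HSPA5 was 0.58.

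Partners outside the heat shock families were counted by compartment, and the difference between these lists was not tested. Of 17 tested ER folding partners, 5 rose on day 2, 11 on day 6 and 9 on day 10, and 0 fell, with medians of 1.74, 2.38 and 1.66. Of all genes, 5.76%, 9.55% and 11.9% rose. Without day 0 replicate 2 the counts were 5, 8 and 10, beside 6.67%, 6.67% and 11.3% of all genes, and under median ratio scaling 1, 2 and 3, beside 2.67%, 2.13% and 7.22%. HYOU1, the HSP110 of the ER that recharges HSPA5, was at 16.5, 2.5 and 8.55 FPKM on day 0 and 177, 74.9 and 107 on day 6 (3.76 ± 0.67, limma adjusted p = 0.00859), and had risen by day 2 (3.22, 0.0209). The disulfide isomerases PDIA6 (3.06, 0.00899) and PDIA4 (3.08, 0.00905) rose on day 6 as well. CALR, a lectin chaperone for glycoproteins, was at 174, 62.4 and 148 FPKM on day 0 and 457, 467 and 1018 on day 10 (2.35 ± 0.54, 0.0102). PDIA5 was at 5.78, 2.68 and 3.6 FPKM on day 0 and 27.8, 22.1 and 40.4 on day 10 (2.64 ± 0.47, 0.00214).

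Of 21 cytosolic cochaperones and heat shock factors, 0 rose and 1 fell on day 2, and 2 rose and 1 fell on each of day 6 and day 10, with medians of 0.94, 0.92 and 0.43. Of all tested genes, 5.76%, 9.55% and 11.9% rose and 3.14%, 1.76% and 6.23% fell. The gene that fell at all 3 times was UNC45B, the myosin chaperone of striated muscle and a partner of HSP90. It was at 75.3, 34.3 and 69.9 FPKM on day 0, 2.61 and 4.82 on day 2, 10.2, 18.2 and 21.5 on day 6, and 1.3, 1.18 and 1.57 on day 10. Its log2 fold changes were -3.65 ± 0.55 (limma adjusted p = 0.00262), -1.77 ± 0.49 (0.0396) and -4.62 ± 0.49 (5.07e-05), with the cardiomyocyte markers beside it as given for HSPB6. BAG3, which links HSP70 to autophagy and to small heat shock proteins in muscle, was at 38.9, 10.7 and 28 FPKM on day 0, 104, 145 and 92.9 on day 6, and 13.9, 29.8 and 38.1 on day 10. It rose on day 6 (2.25 ± 0.54, 0.0239) and fell from day 6 to day 10 (-2.11 ± 0.54, 0.0399). The HSP90 partner CHORDC1 rose on day 6 (2.24, 0.0468), and UNC45A, the general form of UNC45 (1.59, 0.0277), and TOMM34 (1.59, 0.0489) rose on day 10. CHORDC1 was at 3.01, 0.391 and 7.36 FPKM on day 0, lowest in day 0 replicate 2. Values without that library or under median ratio scaling are not given for the cytosolic, TRiC and mitochondrial partners. How partner calls changed with the settings is given at the end.

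Of 10 tested subunits of the TRiC chaperonin and prefoldin, which fold actin and tubulin, 0 were called on day 2, 1 on day 6 (CCT5, 1.55, limma adjusted p = 0.0425) and 1 on day 10 (PFDN4, 2.48, 0.014), with medians of 1.67, 1.36 and 1.20. These calls, both higher, were near the shares of all tested genes called higher, 9.55% on day 6 and 11.9% on day 10. Of 6 mitochondrial partners, 0 were called on day 2 and day 6. GRPEL2, a nucleotide exchange factor of HSPA9, fell on day 10, as did 6.23% of all tested genes. It was at 26.9, 27.1 and 31.6 FPKM on day 0 and 8.49, 6.57 and 5.32 on day 10 (-1.94 ± 0.45, 0.0104).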

How the data were processed

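RNA had been isolated with Trizol and made into TruSeq libraries, per the labels' protocols. The authors deposited 1 table of FPKM values per gene and library. Bowtie 0.12.2 and mm8, a mouse build, are named in the submitters' processing notes without a role, while the gene identifiers are pig Ensembl ones. The counting tool, the annotation, the use of strand and the treatment of reads shared by related genes were not given in the sources used here. HSPA1L, HSPA8, HSP90AA1, HSP90AB1, HSPD1 and HSPE1 have close relatives or pseudogenes, and reads shared with these make their levels uncertain. Every column was matched to its sample by name.

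Values above 0 came out as whole multiples of the value of 1 read in 100% of 16073 genes, within 0.01 of a read, which gave reads and library totals. Genes averaging 1 FPKM or more were fitted on log2(FPKM + 1) with the 4 groups as terms in limma 3.58.1 (R 4.3.3; eBayes with trend, 7 residual and 5.89 prior degrees of freedom). 5 comparisons were read from it, two-sided, with Benjamini-Hochberg adjustment over all tested genes. The members, compartments, partner and marker lists were chosen with earlier results of these data known. A fixed panel, every other called member and up to 3 partners with the smallest p per comparison and list were named; DNAJC19, DNAJC27, DNAJC28 and the within-library ratios were added after their values were seen. The steps were tested on simulated data. The 24 alternatives were other pseudocounts, filters, scalings, eBayes settings, array weights, a replicate block, limma voom and left-out libraries.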

Additional observations from a re-analysis of the deposited data

How the results depend on the processing

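Of 32 called member values under 24 alternatives (23 for HSPB6), 497 kept the call and 270 missed the threshold, and none changed sign. The number of members called on day 2 against day 0 was 7, and 0 with only the compared groups in the fit, 3 with array weights, 4 with limma voom and 3 without both libraries with most genes at 0. In that order, the last left aside, 0.229%, 3.77% and 4.23% of all tested genes were higher and 0.245%, 5.07% and 2.1% lower. On day 6 it was 13, and 6 with a pseudocount of 0.1, 8 without a filter and 5 under median ratio scaling. With only the compared groups it was 2, with array weights 35 and with voom 5. Of all tested genes, 6.68%, 5.99%, 2.13%, 3.5%, 39.1% and 5.25% were higher in these fits. Lower were 0.784%, 1.19%, 4.71%, 0.669%, 13.4% and 0.903%. On day 10 it was 11, and 5 with a pseudocount of 0.1 and 7 without a filter. With only the compared groups it was 3, with array weights 21 and with voom 5. The members called higher were 6.82%, 10.9%, 2.27%, 27.3% and 6.82%, beside 10.6%, 8.96%, 6.65%, 23.1% and 8.78% of all tested genes. Those called lower were 4.55%, 4.35%, 4.55%, 20.5% and 4.55%, beside 5.88%, 5.1%, 4.57%, 20.3% and 5.54%. For day 10 against day 6 it was 1, and 0 under median ratio scaling, with the replicate block and with voom, 3 under quantile normalization, 4 with only the compared groups, 24 with array weights and 5 without both libraries. In that order, the last left aside, 2.39%, 1.63%, 1.39%, 4.95%, 5.37% and 11.7% of all genes were higher. Lower were 2.25%, 2.36%, 2.45%, 4%, 10.7% and 35.5%. Quantile normalization called 5 higher and 2 lower members on day 2, 11 and 3 on day 6, and 8 and 4 on day 10. It called 5.6%, 5.35% and 10.7% of all genes higher and 8.06%, 7.4% and 11.3% lower. Fits without 1 library of day 0, 6 or 10 called 3.53% to 6.67% of all genes higher on day 2. On days 6 and 10 it was 0.832% to 10.3% and 7.25% to 11.3%. Lower at the 3 times were 2.06% to 7.3%, 0.111% to 3.22% and 4.32% to 10.1%. Leaving out 1 library gave 0 to 9 members on day 2 (0 without day 2 replicate 1, 2 without replicate 2), 0 to 13 on day 6 (0 without day 6 replicate 1, 4 without replicate 3 and 7 without replicate 2 of that day; 5 when day 10 replicate 2 was left out, 6 for day 0 replicate 2, and 8 for day 10 replicate 1 or 3), 2 to 11 on day 10 (2 without day 10 replicate 1 or 3, 3 without replicate 2, 5 without day 6 replicate 1 or 3, 7 without day 6 replicate 2) and 0 to 4 for day 10 against day 6.

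Partner genes called were 6 on day 2, and 2 under median ratio scaling, 0 with only the compared groups, 2 with array weights and 1 without both libraries, with 1 to 8 when a library was left out. On day 6 they were 15, and 3, 5 and 39 under the first 3 of these and 8 with voom, with 0 to 14 when a library was left out. On day 10 they were 14, and 6, 7 and 26, with 7 to 14. For day 10 against day 6 they were 2, and 1 with a pseudocount of 0.1, under median ratio scaling and with the replicate block, 5 under quantile normalization, 7 with only the compared groups, 33 with array weights and 9 without both libraries, with 1 to 7. The fit with only the compared groups has fewer libraries to estimate the spread. The cause of the changes under any of these settings was not tested.

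With the replicate number as a block, 8 members were higher and 1 lower on day 2. On day 6, 12 were higher, and on day 10, 9 were higher and 2 lower. Of all tested genes, 4.51%, 7.3% and 10.7% were higher and 2.38%, 1.38% and 5.96% lower. Whether the replicate numbers pair the libraries is not in the labels and was not settled. The residuals of same-numbered libraries had a correlation over 0.1 in 9 of 15 pairs (range -0.552 to 0.469). Of 11 libraries, 5 correlated best with their own number. Residuals within such small groups depend on each other, so these values cannot decide it. Few reads limit HSPB6, DNAJC27 and DNAJC28 on day 10 and DNAJC27 on day 2, and 2 libraries limit day 2.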
